A study of Homo sapiens with 19 samples.

Results

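The 10 genes described here encode RNA-binding proteins of stress granules or of the RGG-box class: G3BP1, G3BP2, CAPRIN1, FMR1, FXR1, FXR2, DDX3X, SERBP1, CIRBP and RBM3. They were chosen by symbol, not by measured values, and each was found as 1 Ensembl ID in every gene table, 10 of 60612 IDs for HCT116, 10 of 63086 for WiDr and 10 of 82890 for the long reads of WiDr. HCT116 and WiDr are human colorectal carcinoma cell lines. HCT116 had been exposed for 96 h to 5 µM GSK715 (GSK3368715, named in the labels as an inhibitor of PRMT1), to 10 µM GSK025 (GSK3235025, named as an inhibitor of PRMT5) or to the DMSO vehicle alone, with 3 libraries in each group. WiDr had been exposed for 96 h to 5 µM GSK715 or to DMSO, again with 3 short-read libraries in each group, and full-length cDNA of WiDr with the same agents was read on an Oxford Nanopore (ONT) instrument, with 2 libraries in each group. No genetic change is named for any group, and GSK025 was used in HCT116 but not in WiDr.

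PRMT1 and PRMT5 transfer methyl groups to arginine, PRMT1 to make the asymmetric and PRMT5 the symmetric dimethyl form, and stretches of arginine and glycine, the RGG boxes, are their best known substrates in RNA-binding proteins. Stress granules are condensates of untranslated mRNA and protein that form when translation initiation stalls. G3BP1 and G3BP2 are the scaffold on which they assemble, CAPRIN1 binds the G3BPs, and the other proteins join them. The values below are mRNA levels, and neither arginine methylation nor granules were measured in these files.

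Short-read libraries held 64558688 to 66915779 counts in HCT116 and 59612948 to 82390261 in WiDr, and the ONT libraries held 1449574 to 1667667 estimated counts, so that all 10 genes passed the filter on low counts in short reads and 9 of 10 in ONT. FXR2 was the exception, with 0 to 3 counts in an ONT library. All 10 are annotated as protein-coding, and gene positions below are those of GENCODE 29 on GRCh38. Levels are CPM (counts relative to the library total, scaled by trimmed mean of M values, TMM), and a change is given as log2FC, the log2 of the fold change, with its approximate standard error (SE). Calls were made with edgeR's quasi-likelihood test at a Benjamini-Hochberg adjusted p below 0.05 over all genes tested. In bulk RNA, less RNA of a gene per cell and fewer cells that hold it cannot be told apart. As a check of the labelled tissue, 6 of 10 colon epithelial markers reached 1 CPM in each HCT116 group, 9 of 10 in WiDr with GSK715, 8 of 10 in WiDr with DMSO and 9 of 10 in both ONT groups. CDX1, CEACAM5, LGALS4 and VIL1 stayed under 1 CPM in HCT116. The summed level of 9 stromal, endothelial and immune markers was 101 to 110 CPM in HCT116 with GSK715, 40.1 to 45.6 with GSK025 and 54.4 to 58.6 with DMSO, most of it CD68, which shares 85.8% of its exonic bases with other genes. PTPRC, which marks leukocytes, was at 0 in HCT116.

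With GSK715, 7 of the 10 genes fell and 3 rose in each line, but not the same 3. CIRBP and RBM3 rose in both lines, the third gene to rise was FXR2 in HCT116 and FXR1 in WiDr, and DDX3X had the lowest log2FC of the 10 in both. With GSK025 in HCT116, 6 fell (G3BP1, G3BP2, FMR1, FXR1, DDX3X and SERBP1), 3 rose (FXR2, CIRBP and RBM3) and CAPRIN1 did not pass. Such calls were common among all genes: 46.4% of the 19751 genes tested passed for GSK715 in HCT116 (22.1% higher, 24.2% lower), 44.1% for GSK025 in HCT116 (22.0% higher, 22.1% lower) and 65.8% of 19340 for GSK715 in WiDr (33.6% higher, 32.2% lower). The median log2FC of the 10 genes was -0.42 for GSK715 in HCT116 against -0.052 over all genes tested, -0.13 for GSK025 against -0.018, and -0.48 for GSK715 in WiDr against 0.054. All genes tested include weakly expressed ones. In WiDr, genes of at least 5 CPM had medians of -0.060, -0.16 and -0.21 in the 3 bands of transcript length given below. Both comparisons with DMSO in HCT116 share their DMSO libraries. With library totals as the only scaling, the median log2FC of all genes shifts by -0.16 for GSK715 in HCT116, by -0.07 for GSK025 and by 0.12 for GSK715 in WiDr, and no gene of the 10 that was called in these comparisons changed its sign.

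**Figure D1:**
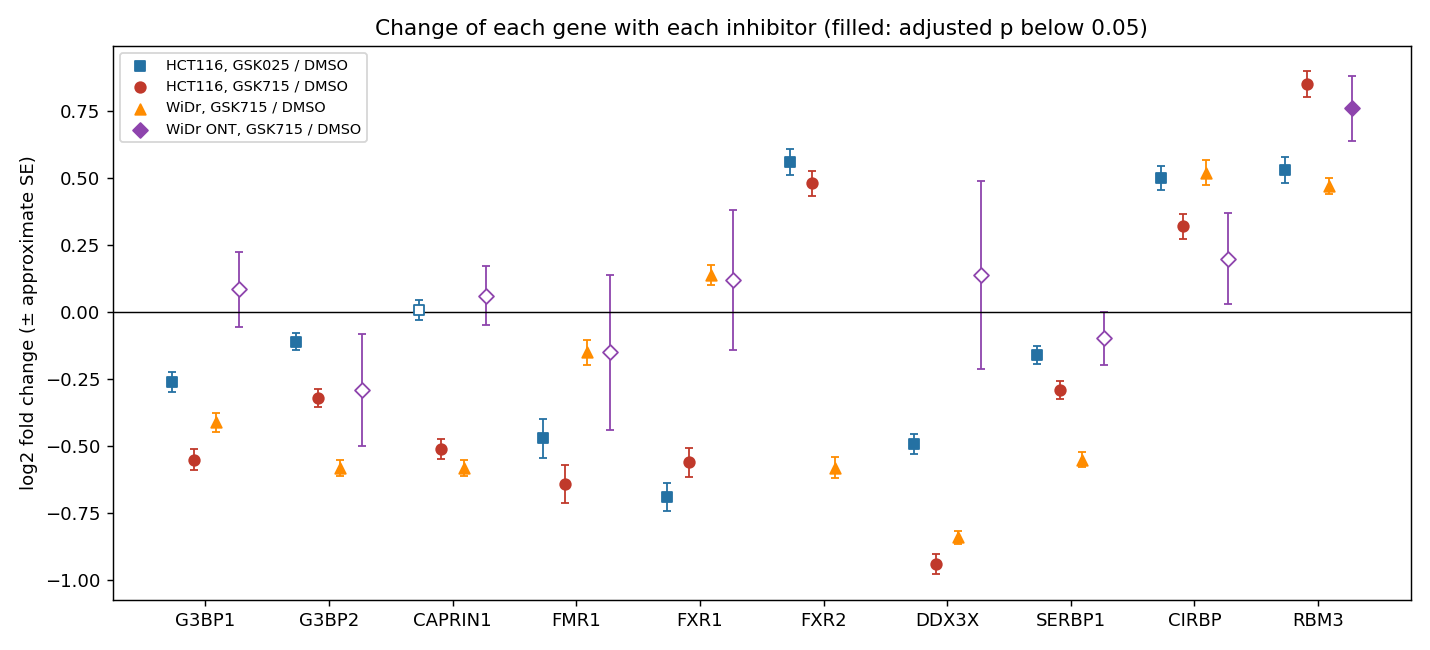
Log2 fold change of each gene (vertical axis, bars are ± approximate SE) for each inhibitor over DMSO, with filled symbols where the adjusted p is below 0.05. CIRBP and RBM3 lie above 0 in every comparison shown (CIRBP in ONT at 0.20 and unfilled), and DDX3X lies at -0.94 and -0.84 with GSK715 in the short reads of HCT116 and WiDr but at 0.14, unfilled, in ONT.

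Per kilobase of the principal transcript, which allows genes to be compared with each other, CAPRIN1 stood highest in the short-read DMSO libraries of both lines, at 138 ± 3.91 CPM per kb in WiDr and 91.6 ± 2.80 in HCT116 (SD, n = 3 each). In HCT116 with DMSO, SERBP1 (82.9 CPM per kb) and RBM3 (82.0) followed with overlapping mean ± SD ranges, before CIRBP (74.0), G3BP2 (67.6) and DDX3X (52.8). FXR1 (30.9) and G3BP1 (30.2) overlapped in the same way, FXR2 was at 28.5 and FMR1 was lowest at 7.83. In WiDr with DMSO the order after CAPRIN1 was RBM3 (79.7 CPM per kb), then SERBP1 (73.5) and G3BP2 (72.9) with overlapping ranges, DDX3X (62.3), CIRBP (42.1), G3BP1 (23.6), FMR1 (19.8), FXR2 (19.1) and FXR1 (9.90). By short reads FXR1 was thus the lowest of the 10 in WiDr and FMR1 in HCT116. The ONT order in WiDr with DMSO, in CPM without scaling by length, was another one: SERBP1 stood highest (288 CPM) before CAPRIN1 (172), and FXR1 (25.4) was above FMR1 (18.8), DDX3X (11.7) and FXR2 (1.64). G3BP1 stood above G3BP2 in ONT (74.4 and 39.1 CPM), the reverse of their order per kb in short reads. The order per kb depends on the transcript length used. The tables of the lines were made separately, so levels are set in order within a line only.

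**Figure D2:**
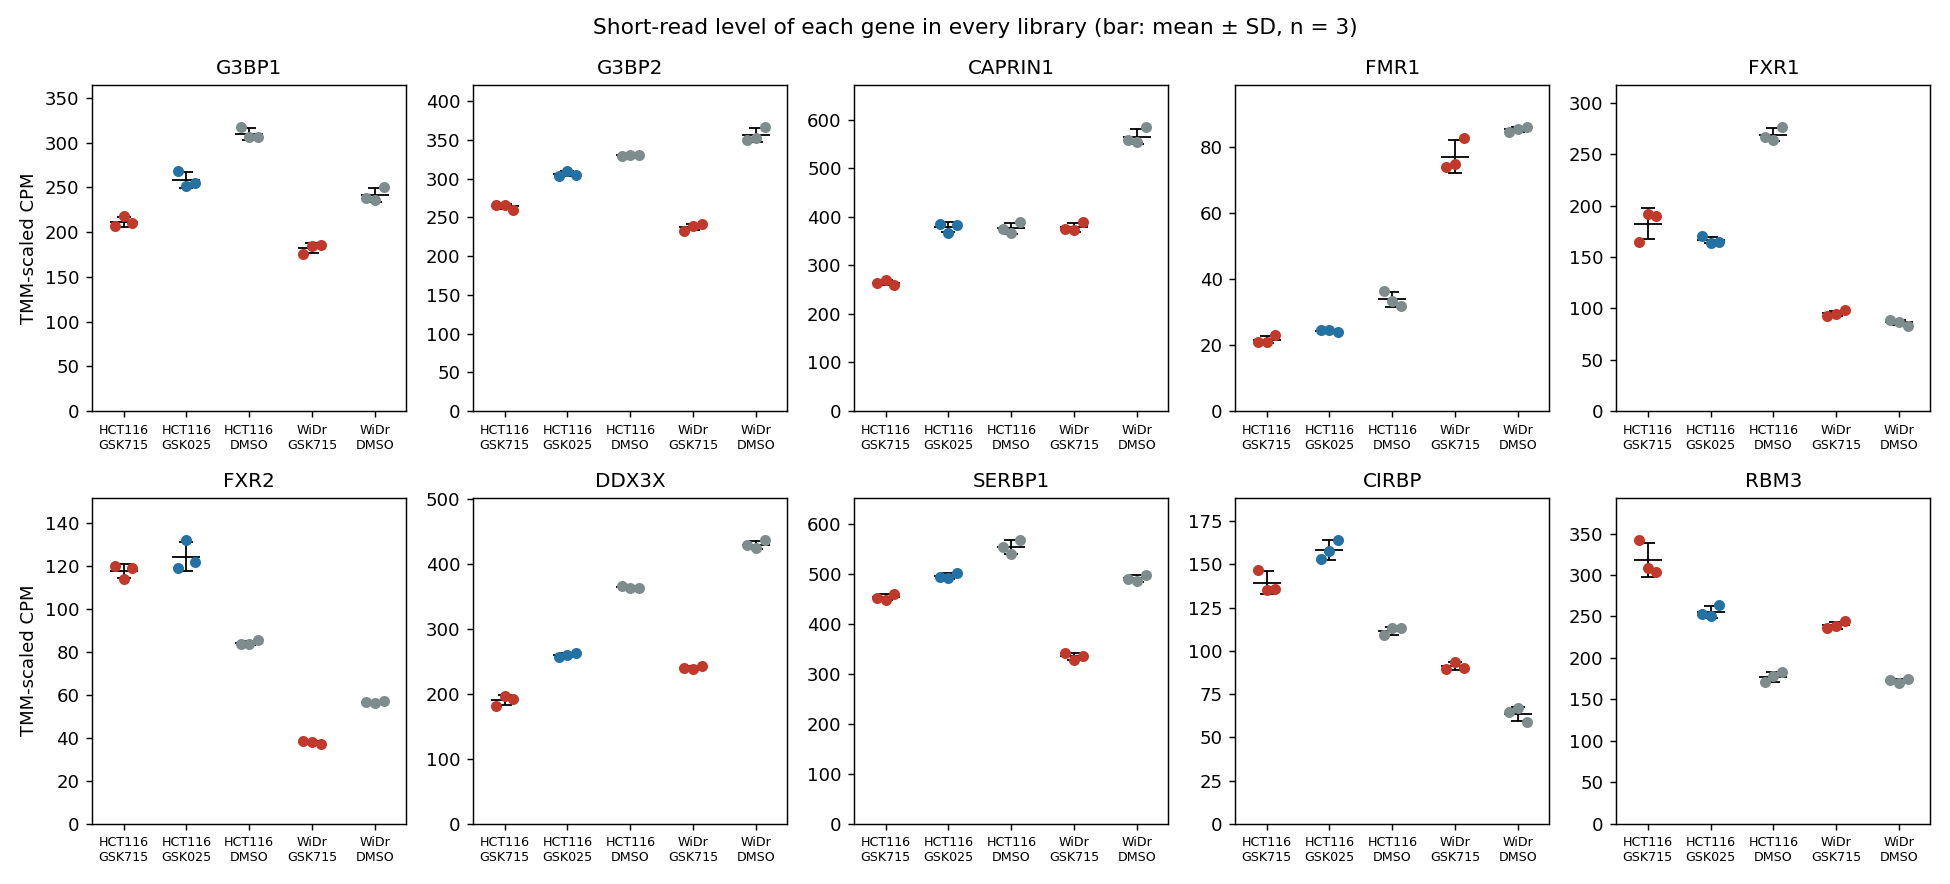
Level of each gene in TMM-scaled CPM (vertical axes, from 0) in every short-read library, with the mean ± SD of 3 libraries per group. DDX3X shows 3 separate levels in HCT116, at 182 to 197 CPM with GSK715, 257 to 263 with GSK025 and 363 to 367 with DMSO, and FXR2 lies above DMSO with both inhibitors in HCT116 but below it with GSK715 in WiDr.

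The scaffold of the granule, G3BP1, G3BP2 and their partner CAPRIN1, fell with GSK715 in both lines. G3BP1 (chr5:151771045-151812785, plus strand) was at 207, 218 and 210 CPM in HCT116 with GSK715, 268, 252 and 255 with GSK025 and 317, 306 and 306 with DMSO. The 3 groups did not overlap, and G3BP1 fell with GSK715 (log2FC -0.55, SE 0.039, edgeR adjusted p = 1.21e-07) and less with GSK025 (log2FC -0.26, SE 0.038, adjusted p = 8.71e-05). In WiDr it was at 176, 184 and 186 CPM with GSK715 and 238, 236 and 250 with DMSO, again without overlap (log2FC -0.41, SE 0.035, adjusted p = 2.8e-06). G3BP2, its paralog (chr4:75642782-75724525, minus strand), moved by less in HCT116, at 266, 266 and 260 CPM with GSK715, 304, 310 and 305 with GSK025 and 329, 331 and 330 with DMSO. Its fall was 1.25-fold with GSK715 (log2FC -0.32, SE 0.032, adjusted p = 2.68e-06) and 1.08-fold with GSK025 (log2FC -0.11, SE 0.032, adjusted p = 0.0141), and the call for GSK025 was lost without DMSO replicate 2 (adjusted p = 0.0534). In WiDr, G3BP2 was at 233, 239 and 241 CPM with GSK715 and 350, 352 and 366 with DMSO, a 1.5-fold fall (log2FC -0.58, SE 0.029, adjusted p = 5.12e-08).

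CAPRIN1 (chr11:34051683-34101156, plus strand) set the inhibitors apart in HCT116. It was at 264, 269 and 259 CPM with GSK715, 386, 367 and 383 with GSK025 and 374, 367 and 389 with DMSO. All GSK715 libraries lay below all others, while those with GSK025 and DMSO overlapped. Its log2FC over DMSO was -0.51 with GSK715 (SE 0.038, edgeR adjusted p = 1.78e-07) and 0.0082 with GSK025 (SE 0.037, adjusted p = 0.892), and GSK715 over GSK025 gave -0.52 (SE 0.038, adjusted p = 1.95e-07). In WiDr it was at 374, 372 and 389 CPM with GSK715 and 558, 554 and 584 with DMSO, a 1.49-fold fall with all GSK715 libraries below all DMSO libraries (log2FC -0.58, SE 0.030, adjusted p = 7.14e-08).

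FMR1 and its paralogs FXR1 and FXR2 encode polyribosome-associated proteins that bind each other, and loss of FMR1 causes fragile X syndrome. The 3 transcripts did not move as a family. FMR1 (chrX:147911951-147951125, plus strand) was at 21.0, 21.0 and 22.9 CPM in HCT116 with GSK715, 24.5, 24.5 and 24.0 with GSK025 and 36.4, 33.2 and 31.7 with DMSO. It fell there with both inhibitors, 1.56-fold with GSK715 (log2FC -0.64, SE 0.072, edgeR adjusted p = 8.19e-06) and 1.39-fold with GSK025 (log2FC -0.47, SE 0.072, adjusted p = 0.000127), and the difference between them, with a log2FC of -0.17 (SE 0.073, adjusted p = 0.0745), missed the threshold. In WiDr, FMR1 was at 73.7, 74.6 and 82.6 CPM with GSK715 and 84.5, 85.4 and 85.8 with DMSO. That fall was 1.11-fold (log2FC -0.15, SE 0.045, adjusted p = 0.0149), and it no longer passed without GSK715 replicate 1 (adjusted p = 0.0531) or replicate 2 (0.0512), or with library totals as the only scaling (log2FC -0.022, adjusted p = 0.695).

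FXR1 (chr3:180868141-180982753, plus strand) was at 165, 192 and 190 CPM in HCT116 with GSK715, 170, 164 and 165 with GSK025 and 267, 264 and 276 with DMSO. It was the gene of the 10 with the lowest log2FC for GSK025 (-0.69, SE 0.053, edgeR adjusted p = 3.37e-07), and it fell with GSK715 as well (log2FC -0.56, SE 0.053, adjusted p = 1.59e-06). In WiDr it went the other way, at 92.5, 94.5 and 98.0 CPM with GSK715 and 88.7, 86.8 and 83.2 with DMSO. The groups did not overlap and the rise was 1.1-fold (log2FC 0.14, SE 0.037, adjusted p = 0.00692). FXR2 (chr17:7591230-7614871, minus strand) showed the reverse. It was at 120, 114 and 119 CPM in HCT116 with GSK715, 119, 132 and 122 with GSK025 and 83.8, 83.6 and 85.4 with DMSO, a rise of 1.4-fold with GSK715 (log2FC 0.48, SE 0.047, adjusted p = 2.06e-06) and of 1.47-fold with GSK025 (log2FC 0.56, SE 0.047, adjusted p = 7.45e-07). In WiDr it was at 38.6, 38.0 and 37.3 CPM with GSK715 and 56.7, 56.0 and 57.1 with DMSO, a 1.49-fold fall (log2FC -0.58, SE 0.040, adjusted p = 6.78e-07). The exons of FXR2 share 4.4% of their bases with MPDU1 on the other strand, and the strand of the counting is not given in the sources used here.

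DDX3X (chrX:41333284-41364472, plus strand) encodes a DEAD-box RNA helicase of translation initiation, and it had the lowest log2FC for GSK715 of the 10 genes in both lines. In HCT116 it was at 182, 197 and 193 CPM with GSK715, 257, 260 and 263 with GSK025 and 367, 364 and 363 with DMSO. It fell 1.91-fold with GSK715 (log2FC -0.94, SE 0.038, edgeR adjusted p = 1.26e-09) and 1.4-fold with GSK025 (log2FC -0.49, SE 0.037, adjusted p = 3.41e-07), and the difference between them passed too (log2FC -0.45, SE 0.037, adjusted p = 7.15e-07). In WiDr it was at 240, 239 and 243 CPM with GSK715 and 429, 425 and 437 with DMSO, a 1.79-fold fall (log2FC -0.84, SE 0.026, adjusted p = 1.74e-09). DDX3X has a close paralog on chromosome Y with which reads can be shared, so its counts are uncertain to that extent. SERBP1 (chr1:67407810-67430415, minus strand), whose RGG-box protein binds mRNA and idle ribosomes, was at 451, 448 and 460 CPM in HCT116 with GSK715, 494, 491 and 502 with GSK025 and 553, 540 and 567 with DMSO. The 3 groups were apart, with a fall of 1.22-fold for GSK715 (log2FC -0.29, SE 0.033, adjusted p = 8.48e-06) and 1.12-fold for GSK025 (log2FC -0.16, SE 0.033, adjusted p = 0.00125). In WiDr the fall was 1.47-fold, with 341, 327 and 336 CPM under GSK715 and 489, 485 and 498 under DMSO (log2FC -0.55, SE 0.027, adjusted p = 4.34e-08). SERBP1 has 6 named pseudogenes that could take some of its reads.

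CIRBP and RBM3 encode small cold-inducible proteins with 1 RNA-recognition motif and a glycine-rich tail with RGG repeats, and they were the only members of the 10 to rise in each short-read comparison of an inhibitor with DMSO. CIRBP (chr19:1259384-1274880, plus strand) was at 147, 135 and 136 CPM in HCT116 with GSK715, 153, 158 and 164 with GSK025 and 109, 113 and 113 with DMSO. Its rise was 1.25-fold with GSK715 (log2FC 0.32, SE 0.046, edgeR adjusted p = 7.84e-05) and 1.42-fold with GSK025 (log2FC 0.50, SE 0.046, adjusted p = 1.63e-06). In WiDr, CIRBP was at 89.8, 93.8 and 90.2 CPM with GSK715 and 64.8, 66.7 and 58.9 with DMSO, 1.44-fold higher (log2FC 0.52, SE 0.047, adjusted p = 4.41e-06). RBM3 (chrX:48574449-48579066, plus strand) stood highest with GSK715 in HCT116, at 342, 309 and 304 CPM with GSK715, 253, 250 and 264 with GSK025 and 171, 178 and 183 with DMSO. It was 1.80-fold higher with GSK715 (log2FC 0.85, SE 0.049, adjusted p = 2.64e-08) and 1.44-fold higher with GSK025 (log2FC 0.53, SE 0.049, adjusted p = 1.8e-06). In WiDr, RBM3 was at 236, 238 and 244 CPM with GSK715 and 173, 170 and 175 with DMSO (log2FC 0.47, SE 0.029, adjusted p = 2.45e-07). The inhibitor groups lay wholly above DMSO for both genes in both lines.

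Between the inhibitors in HCT116, whose doses differed (GSK715 at 5 µM and GSK025 at 10 µM), 7 of the 10 genes passed, 1 higher and 6 lower with GSK715 than with GSK025, where 44.3% of all genes tested passed (21.8% higher, 22.5% lower). RBM3 was the gene higher with GSK715 (log2FC 0.32, SE 0.049, edgeR adjusted p = 0.000159). CIRBP, its cold-inducible relative, lay below its GSK025 level under GSK715 (log2FC -0.18, SE 0.046, adjusted p = 0.00545), so the pair of genes that rose with both compounds ranked them in opposite order. G3BP1 (log2FC -0.29, SE 0.039, adjusted p = 4.76e-05), G3BP2 (-0.21, SE 0.032, adjusted p = 0.000124) and SERBP1 (-0.13, SE 0.033, adjusted p = 0.00588) were lower with GSK715 along with CAPRIN1 and DDX3X. FXR1 (log2FC 0.13, SE 0.053, adjusted p = 0.0643) and FXR2 (-0.074, SE 0.047, adjusted p = 0.224) joined FMR1 among those that did not pass. Without GSK715 replicate 1, whose FXR1 level of 165 CPM was below the other GSK715 libraries, FXR1 passed as higher with GSK715 (log2FC 0.20, adjusted p = 0.00152). DESeq2 called it as well (log2FC 0.13, adjusted p = 0.0399). With library totals, FMR1 (log2FC -0.26, adjusted p = 0.0108) and FXR2 (-0.17, adjusted p = 0.00826) passed as lower with GSK715, which made 8 lower.

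The stretches before the RefSeq start of CIRBP, RBM3 and FXR2, the genes that rose in HCT116, are printed here from RefSeq's GRCh38.p14 table. Each ends before any base that GENCODE 29 annotates as an exon of the gene. A relation of these sequences to the changes was not tested. The CIRBP stretch is chr19:1269082-1269265 on the plus strand, that of RBM3 is chrX:48574234-48574448 on the plus strand, and that of FXR2 is chr17:7614898-7615147 on the minus strand, all read 5′ to 3′ along the gene. Capitals mark the GC box GGGCGG, the CCAAT box CCAAT and the TATA box TATAA on either strand.
CIRBP: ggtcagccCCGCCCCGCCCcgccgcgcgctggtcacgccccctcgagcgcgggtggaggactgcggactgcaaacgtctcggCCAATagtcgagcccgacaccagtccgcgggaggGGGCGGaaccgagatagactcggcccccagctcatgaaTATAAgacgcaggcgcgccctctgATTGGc
RBM3: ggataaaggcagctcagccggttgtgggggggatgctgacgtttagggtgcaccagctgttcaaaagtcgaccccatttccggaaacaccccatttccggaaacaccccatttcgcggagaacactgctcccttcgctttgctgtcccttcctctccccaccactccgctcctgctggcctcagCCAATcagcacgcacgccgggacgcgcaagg
FXR2: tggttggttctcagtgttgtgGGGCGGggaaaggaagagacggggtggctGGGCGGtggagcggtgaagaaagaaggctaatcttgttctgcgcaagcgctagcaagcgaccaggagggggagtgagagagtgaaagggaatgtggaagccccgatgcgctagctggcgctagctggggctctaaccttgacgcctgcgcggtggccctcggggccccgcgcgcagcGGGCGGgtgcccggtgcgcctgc
CIRBP holds 3 GC boxes, 2 CCAAT boxes and 1 TATA box in its 184 bases, RBM3 holds 1 CCAAT box in 215 bases and FXR2 holds 3 GC boxes in 250 bases. The cut at annotated exons drops the bases nearest the RefSeq start of CIRBP and RBM3. The full CIRBP window of 250 bases holds 4 GC boxes, 2 CCAAT boxes and 2 TATA boxes, and that of RBM3 holds 1 CCAAT box. The shares given next are for full windows. The motifs searched, which also included CCGGAAG and the NRF1 motif, shared no base with a different motif, while a pair of GC boxes in CIRBP shares 1 base. In all 35116 RefSeq windows of 250 bases before a start, GGGCGG was present in 42.6%, CCAAT in 32.0%, TATAA in 18.9%, CCGGAAG in 8.52% and the NRF1 motif in 1.03%. All 10 genes had a window in that table, 17 windows in total, and the windows of FXR1 lie mostly in annotated exons and are not printed. CIRBP and RBM3 both hold a CCAAT box, and so does G3BP1, which fell, with 4 in its stretch of 206 bases. The full windows of FXR1 and a pair of those of G3BP2 hold 1 each.

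The response to GSK715 differed between the lines for 7 of the 10 genes, 2 higher and 5 lower in WiDr, where 46.7% of the 21791 genes tested passed (23.2% higher, 23.5% lower). FXR2 had the largest difference: its log2FC was -0.58 in WiDr and 0.48 in HCT116, and the difference itself was -1.13 (SE 0.048, edgeR adjusted p = 6.4e-10). FXR1 differed by 0.63 the other way (SE 0.074, adjusted p = 9.58e-06), so that FXR1 rose and FXR2 fell in WiDr while FXR1 fell and FXR2 rose in HCT116. FMR1 fell by less in WiDr (difference 0.43, SE 0.085, adjusted p = 0.001). These 3 differences of the FMR1 family kept their sign and passed in all 17 alternatives tried, at -1.14 to -0.77 for FXR2, 0.60 to 0.99 for FXR1 and 0.41 to 0.78 for FMR1. The calls of the other 4 differences depended on scaling. RBM3 rose by less in WiDr (difference -0.44, SE 0.061, adjusted p = 4.18e-05), and G3BP2 (-0.33, SE 0.039, adjusted p = 9.06e-06) and SERBP1 (-0.34, SE 0.039, adjusted p = 8.7e-06) fell by more there. With library totals as the only scaling, which moves the median difference of all genes by 0.34, those of G3BP2 and SERBP1 became 0.024 and 0.020 and RBM3 became -0.086, none of which passed (adjusted p = 0.654, 0.733 and 0.239). The difference of CAPRIN1 was -0.14 (SE 0.046, adjusted p = 0.0255) and passed in 3 of 17 alternatives with that sign, was lost in 13, and with library totals turned to 0.22 (adjusted p = 0.00148). For G3BP1 (0.071, adjusted p = 0.275), DDX3X (0.026, adjusted p = 0.692) and CIRBP (0.14, adjusted p = 0.122) no difference was called, but each was called with library totals (0.43, 0.38 and 0.49) and with DESeq2 (0.15, 0.11 and 0.22).

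**Figure D3:**
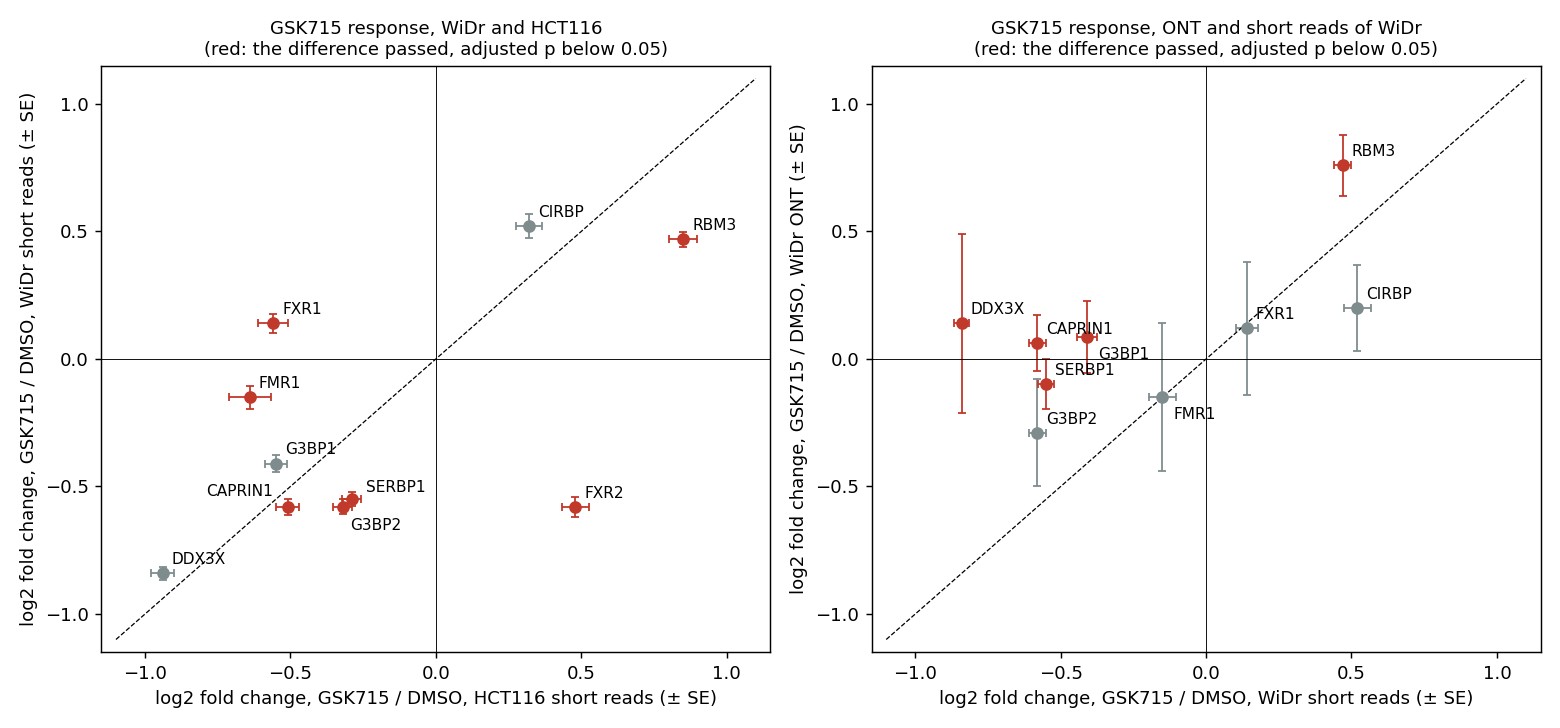
Log2 fold change of GSK715 over DMSO for each gene, WiDr (vertical) against HCT116 (horizontal) at left and ONT (vertical) against short reads of WiDr (horizontal) at right, with approximate SE, the line of equal response dashed and genes whose difference passed in red. FXR2 lies lower right and FXR1 just above 0 at the left of the first panel, with differences of -1.13 and 0.63 between the lines, and in the second panel RBM3 is the gene farthest above 0 in ONT.

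In the ONT reads of WiDr, RBM3 was the 1 gene called of the 9 tested, where 8.80% of the 15877 genes tested passed (4.29% higher, 4.51% lower). It was at 168 and 157 CPM with GSK715 and 91.1 and 101 with DMSO (log2FC 0.76, SE 0.12, edgeR adjusted p = 8.48e-06), so the long reads show the same direction as the short reads. SERBP1 was at 267 and 270 CPM with GSK715 and 287 and 289 with DMSO, apart but not called (log2FC -0.098, SE 0.097, adjusted p = 0.629). CAPRIN1 overlapped, at 166 and 192 CPM with GSK715 and 153 and 192 with DMSO. G3BP1, at 80.1 and 77.6 CPM with GSK715 and 72.6 and 76.1 with DMSO, lay above DMSO without passing (log2FC 0.086, SE 0.14, adjusted p = 0.796). DDX3X, which fell 1.79-fold in the short reads, had 21 and 17 counts with GSK715 and 17 and 19 with DMSO in ONT, and those few counts gave its log2FC of 0.14 an SE of 0.35 (adjusted p = 0.873). CIRBP (0.20, SE 0.17, adjusted p = 0.553), G3BP2 (-0.29, SE 0.21, adjusted p = 0.47), FXR1 (0.12, SE 0.26, adjusted p = 0.852) and FMR1 (-0.15, SE 0.29, adjusted p = 0.827) were not called either. The short-read changes of FXR1 (log2FC 0.14) and FMR1 (-0.15) in WiDr are smaller than their SE in ONT and were not detectable at this depth. None of the 9 was lower by edgeR at an unadjusted p below 0.05, nor by DESeq2, which also called RBM3 alone. Relative to the short reads, DDX3X was rare in ONT: with DMSO it had 11.7 CPM in ONT and 430 CPM in short reads, against 288 and 491 CPM for SERBP1 and 52.5 and 63.5 CPM for CIRBP. FXR2 was rare there too, at 1.64 CPM in ONT and 56.6 CPM in short reads with DMSO. The principal transcripts of DDX3X, SERBP1 and FXR2 are 6907, 6676 and 2957 bases long. Short reads count fragments and grow with transcript length, while an ONT read stands for 1 cDNA, so the scales differ. The estimated counts of an ONT library summed to 36.5% to 38.5% of its full-length reads. The cause of the low ONT levels of DDX3X and FXR2 was not tested.

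The response in ONT was higher than in short reads for 5 of the 10 genes and lower for none, where 19.9% of 24055 genes passed (11.2% higher, 8.69% lower). These were SERBP1 (difference 0.50, SE 0.10, edgeR adjusted p = 0.000124), CAPRIN1 (0.69, SE 0.12, adjusted p = 0.00121), G3BP1 (0.55, SE 0.15, adjusted p = 0.00243), DDX3X (1.03, SE 0.35, adjusted p = 0.0155) and RBM3 (0.34, SE 0.12, adjusted p = 0.0159). Here the SE combines those of the separate ONT and short-read fits. The joint fit, which has 1 estimate of spread for both read types, gave smaller ones for 4 of these genes (0.20 for DDX3X), so its adjusted p-values may be too small where ONT counts are few. It tested 24055 genes and the ONT fit 15877, so the shares above include genes with few ONT counts, such as FXR2. DESeq2's adjusted p was 0.0109 for DDX3X (SE 0.34), 0.0126 for RBM3 (SE 0.11) and 0.00105 for G3BP1 (SE 0.14). By edgeR at an unadjusted p below 0.05, and by DESeq2, the counts were again 5 higher and 0 lower. SERBP1, CAPRIN1, G3BP1 and DDX3X had log2FC values of -0.098, 0.062, 0.086 and 0.14 in ONT and of -0.55, -0.58, -0.41 and -0.84 in short reads, and for RBM3 the rise was larger in ONT. The calls of RBM3 and DDX3X were lost without ONT DMSO replicate 1 (adjusted p = 0.213 and 0.137) or ONT GSK715 replicate 1 (0.137 and 0.202). With library totals as scaling, which moves the median of all genes by -0.20, those of G3BP1 (adjusted p = 0.0584), DDX3X (0.0681) and RBM3 (0.457) were lost too. The average ONT read was shorter with GSK715, at 1095 and 1160 bases, than with DMSO, at 1175 and 1206 bases in the deposited read statistics, and its part in these differences was not tested.

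Transcript length moved with the change in HCT116. Over the 10679 genes of at least 5 CPM with a principal transcript, Spearman's rho between log2FC and length was -0.330 for GSK715 and -0.336 for GSK025, both from the same DMSO libraries, against -0.082 over 10461 genes in WiDr and 0.003 over 10429 genes in ONT. The genes of the 10 that rose in HCT116 were the 3 shortest, CIRBP (1509 bases), RBM3 (2162 bases) and FXR2 (2957 bases). Genes of up to 3000 bases had a median log2FC of 0.16 with GSK715 (quartiles -0.15 and 0.45) and 0.19 with GSK025 (-0.11 and 0.43). RBM3 and FXR2 lay above the upper quartile of that band with both inhibitors, at 0.85 and 0.48 for GSK715 and 0.53 and 0.56 for GSK025, and CIRBP lay above it with GSK025 (0.50) but inside it with GSK715 (0.32). Genes of 3000 to 6000 bases had a median of -0.053 with GSK715 (quartiles -0.43 and 0.26) and -0.011 with GSK025 (-0.42 and 0.30). FMR1 (4308 bases) lay below the lower quartile with both inhibitors, at -0.64 and -0.47, CAPRIN1 (4108) lay below it with GSK715, at -0.51, and G3BP2 (4883) lay inside the quartiles with both. Genes over 6000 bases had a median of -0.32 with GSK715 (quartiles -0.81 and 0.079) and -0.31 with GSK025 (-0.83 and 0.068), and among them G3BP1 (10240 bases), FXR1 (8711) and SERBP1 (6676) stayed within the quartiles while DDX3X (6907) was below them with GSK715. In WiDr the bands differed by less, with medians of -0.060, -0.16 and -0.21. There FXR2 (2957 bases) lay at -0.58 and FXR1 (8711) at 0.14. The part of length in the values of single genes was not tested.

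**Figure D4:**
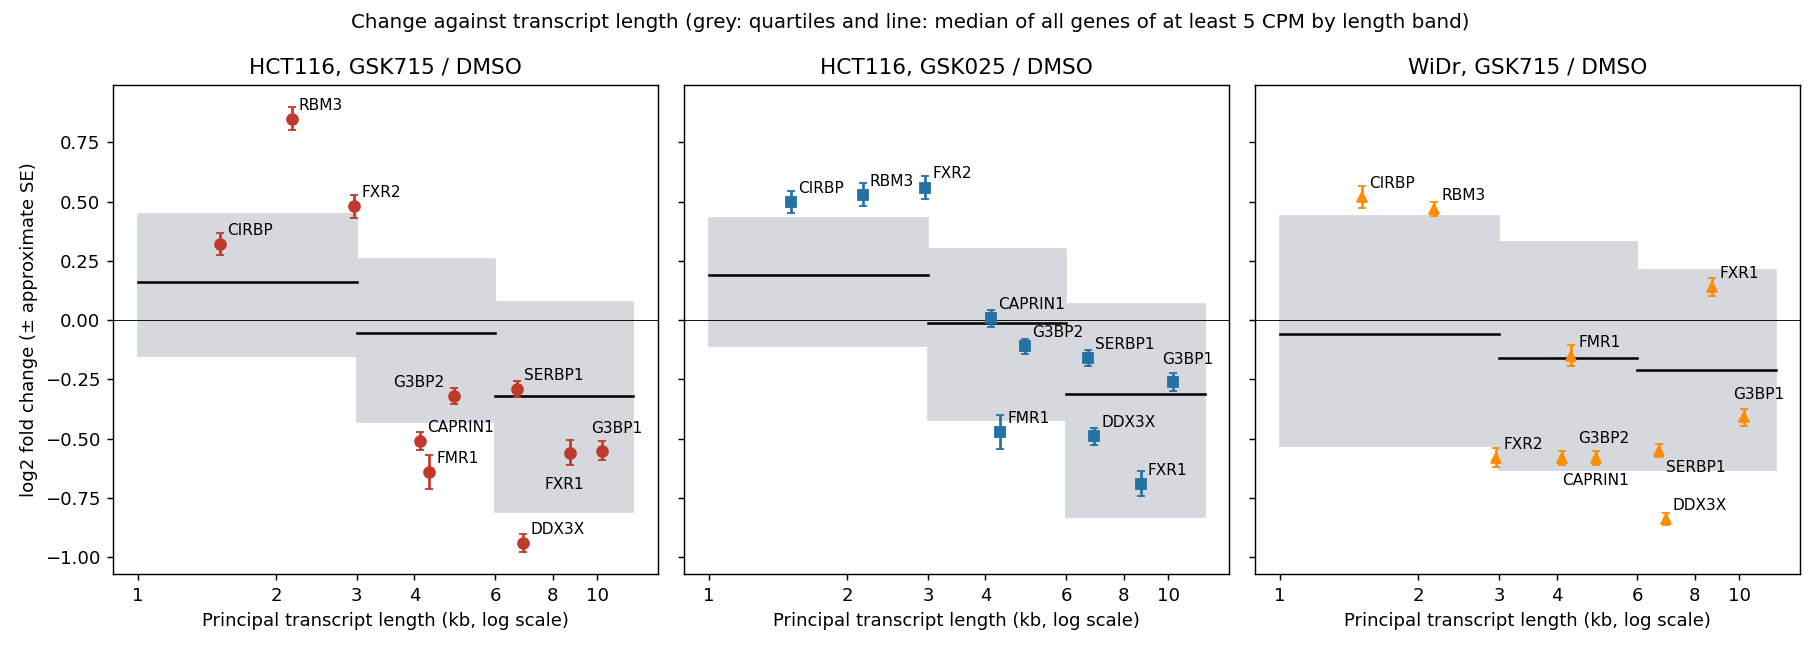
Log2 fold change of each gene (vertical axis, ± approximate SE) against the length of its principal transcript (horizontal axis, log scale), with the median (line) and quartiles (grey) of all genes of at least 5 CPM in 3 length bands, the first of which takes in all lengths up to 3000 bases. In HCT116 the bands step down with length, with medians of 0.16, -0.053 and -0.32 for GSK715, and in WiDr FXR1 and FXR2 lie on the opposite side of 0 from HCT116.

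Other proteins of stress granules and other RGG-box proteins give the setting of these values. Over all genes tested, 46.4% passed for GSK715 in HCT116 (22.1% higher, 24.2% lower) and 44.1% for GSK025 (22.0% higher, 22.1% lower). For GSK715 in WiDr the share was 65.8% (33.6% higher, 32.2% lower), and in ONT it was 8.8% (4.29% higher, 4.51% lower). The counts of every list below stand beside these shares. Of 32 further stress granule genes, 7 rose and 12 fell with GSK715 in HCT116 (median log2FC -0.06), 11 rose and 11 fell with GSK025 (0.01), and in WiDr 3 rose and 24 fell of 31 tested (-0.45). In ONT, 1 of 31 rose and 0 fell by edgeR (3 and 1 at an unadjusted p below 0.05), and DESeq2 called none. The ONT median was -0.02. ONT minus short reads was higher for 15 of 31 genes and lower for 0, where 11.2% of all genes were higher and 8.69% lower. With library totals the split for GSK715 in HCT116 was 3 higher and 20 lower, that in WiDr was 6 higher and 22 lower, and the median for GSK025 turned to -0.055. NUFIP2, a partner of the FMR1 protein, fell with both inhibitors in HCT116, to 43.9 ± 2.49 CPM with GSK715 and 52.0 ± 4.04 with GSK025 against 157 ± 5.00 with DMSO (SD, n = 3 each; log2FC -1.84, SE 0.063, adjusted p = 3.7e-10, and log2FC -1.59, SE 0.062, adjusted p = 2.88e-09). In WiDr, EIF4G2, a translation initiation factor related to eIF4G, was at 1020 ± 7.45 CPM with GSK715 and 2040 ± 24.4 with DMSO (log2FC -1.0, SE 0.018, adjusted p = 7.37e-11). PABPC4, a poly(A)-binding protein, rose there in short reads (log2FC 0.47, SE 0.031, adjusted p = 4.11e-07) and, by edgeR, in ONT (log2FC 0.56, SE 0.14, adjusted p = 0.00581), a call lost without DMSO replicate 1 (adjusted p = 0.25) or GSK715 replicate 1 (0.146).

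Of 24 further RGG-box genes, 7 rose and 11 fell with GSK715 in HCT116 (median log2FC -0.02), and 16 rose and 5 fell with GSK025 (0.20). With GSK715 in WiDr, 3 rose and 19 fell (-0.66), and 2 rose and 1 fell in ONT, where DESeq2 called none. The ONT median was 0.03. ONT minus short reads was higher for 19 of 24 genes and lower for 0 (11.2% and 8.69% of all genes). With library totals the split for GSK715 in HCT116 was 7 higher and 14 lower (median -0.18). That for GSK025 was 13 higher and 5 lower (0.13), and that in WiDr was 3 higher and 18 lower (-0.53). HNRNPA1 rose with GSK025, the direction of most genes of the list (log2FC 0.41, SE 0.027, edgeR adjusted p = 1.01e-07). It also rose with GSK715 in HCT116 (log2FC 0.77, SE 0.027, adjusted p = 4e-10). In WiDr, where most of the list fell, it rose in short reads (log2FC 0.18, SE 0.032, adjusted p = 0.00067). In ONT it rose by edgeR (log2FC 0.41, SE 0.094, adjusted p = 0.00233), a call lost with DESeq2 (adjusted p = 0.104) or without the count filter (0.0882). CNBP fell with GSK715 in WiDr, as did most of the list there (log2FC -0.96, SE 0.025, adjusted p = 5.41e-10). Against the list, TAF15, an RNA-binding protein with RGG repeats, fell with GSK025 (log2FC -0.81, SE 0.035, adjusted p = 5.71e-09). CHTOP, an mRNA export factor whose RGG region PRMT1 methylates, rose with GSK715 in HCT116 (log2FC 0.80, SE 0.048, adjusted p = 3.3e-08), where more of the list fell than rose. In WiDr short reads CHTOP was at 105 ± 5.11 CPM with GSK715 and 107 ± 6.97 with DMSO (SD, n = 3 each). In ONT its mean was 112 CPM with GSK715 and 74.2 with DMSO (n = 2 each). It was called higher there by edgeR (log2FC 0.59, SE 0.13, adjusted p = 0.00198), but not with DESeq2 (adjusted p = 0.411) or without the count filter (0.106).

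The eIF2 cycle, whose kinases stall initiation and so bring on stress granules, had 5 genes higher and 2 lower of 14 with GSK715 in HCT116 (median log2FC 0.05), 2 higher and 4 lower with GSK025 (-0.06), 3 higher and 10 lower with GSK715 in WiDr (-0.61), and 1 higher and 2 lower in ONT, where DESeq2 called none. In HCT116 these counts were near the shares over all genes tested, 46.4% for GSK715 and 44.1% for GSK025. With library totals the split for GSK715 in HCT116 turned to 2 higher and 5 lower, and that for GSK025 was 2 higher and 7 lower. The ONT median of the 14 genes was -0.09. ONT minus short reads was higher for 6 of 14 and lower for 0 (11.2% and 8.69% of all genes). PPP1R15A, the inducible phosphatase subunit that reverses eIF2α phosphorylation, was at 102 ± 2.50 CPM with GSK715 and 55.1 ± 5.00 with DMSO in HCT116 (SD, n = 3 each; log2FC 0.89, SE 0.064, edgeR adjusted p = 1.54e-07). In WiDr short reads it was at 91.3 ± 4.42 CPM with GSK715 and 286 ± 7.99 with DMSO (log2FC -1.65, SE 0.041, adjusted p = 4.58e-10). In ONT its fall was 1.3-fold, from a mean of 310 CPM with DMSO to 239 with GSK715 (n = 2 each). That fall was called by edgeR (log2FC -0.38, SE 0.098, adjusted p = 0.00922), but not with DESeq2 (adjusted p = 0.289) or without the count filter (0.149). EIF2AK2, which encodes the kinase PKR, fell with GSK715 in HCT116 (log2FC -1.39, SE 0.071, adjusted p = 8.46e-09). Of 16 genes of processing bodies, condensates of mRNA decay, 3 rose and 10 fell with GSK715 in HCT116 (median log2FC -0.22). With GSK025, 5 rose and 7 fell (-0.06), and with GSK715 in WiDr 5 rose and 9 fell (-0.21). Library totals gave 2 higher and 11 lower for GSK715 in HCT116, 4 and 7 for GSK025, and 5 and 8 in WiDr. XRN1, the 5′ to 3′ exonuclease, fell with GSK025 to 12.5 ± 0.38 CPM against 37.3 ± 0.736 with DMSO (SD, n = 3 each; log2FC -1.57, SE 0.082, adjusted p = 1.79e-08). In ONT, 0 of 15 processing body genes were called by edgeR, with 0 at an unadjusted p below 0.05 and 0 by DESeq2. Their ONT median was -0.05, and ONT minus short reads was higher for 4 of 16 and lower for 1.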

How the data were processed

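RNA was measured in 19 libraries of HCT116 and WiDr. Per the labels, poly(A) RNA was sequenced as paired short reads, and the long reads were ONT full-length cDNA. The gene values deposited for the short reads are raw counts, and the deposited ONT table holds estimated counts, which were rounded to whole numbers before the fit. A table of read numbers and lengths per ONT library, deposited by the authors, gave the average read length in bases. The submitters' processing notes name cutadapt, HISAT2, StringTie, DESeq2, minimap2, Salmon and GRCh38. The role of each tool, the annotation release and the strand of counting are not given in the sources used here.

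Groups follow the labels of line, compound and read type. The NC columns of WiDr were assigned to DMSO because it is the only control that the labels give. Genes were named through GENCODE 29 and a gene name table. ONT totals were the smallest, so ONT values are the least precise. Whether replicates came from separate cultures is not stated, and the p-values therefore cover only the spread among these libraries, which may be technical. No library was a copy of another.

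Each table was fitted with edgeR 4.0.16 in R 4.3.3 (filterByExpr with a minimum count of 10 and a minimum total of 15, TMM scaling, the quasi-likelihood F-test, Benjamini-Hochberg adjustment over all genes tested, threshold 0.05). Differences between lines and between read types are interaction terms of joint fits over shared IDs. SE is the absolute log2FC divided by the square root of F. For ONT minus short reads it is the root of the summed squares of the SEs of the separate fits. The fits were tested on simulated data. Alternatives were RLE size factors, library totals alone, no count filter, DESeq2 1.42.0, a replicate block, each library left out, and only the groups compared. Replicate numbers did not pair the libraries. Levels per kilobase use the longest APPRIS principal transcript.

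All 10 genes are named throughout. Of the other lists, at most 2 called genes per direction, those lowest in adjusted p, are named, and some of these are left out here, such as genes that share 10% or more of their exonic bases with others. The genes, lists and this rule were chosen with earlier results of these data known. 1 gene of the further RGG-box list is not reported here.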

Additional observations from a re-analysis of the deposited data

Results flagged for a closer look

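The responses below differ between lines or between read types by the test of the difference itself (an interaction term in edgeR's quasi-likelihood test, Benjamini-Hochberg adjusted). They are given as values, and no cause was tested.

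For GSK715 over DMSO, the log2FC in WiDr minus that in HCT116 was -1.13 for FXR2 (adjusted p = 6.4e-10), 0.63 for FXR1 (9.58e-06) and 0.43 for FMR1 (0.001), each in all 17 alternatives. It was -0.44 for RBM3 (adjusted p = 4.18e-05), -0.34 for SERBP1 (8.7e-06), -0.33 for G3BP2 (9.06e-06) and -0.14 for CAPRIN1 (0.0255), and with library totals these 4 did not pass with that sign.

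In WiDr, the log2FC in ONT minus that in short reads was 1.03 for DDX3X (adjusted p = 0.0155, from 17 to 21 ONT counts per library), 0.69 for CAPRIN1 (0.00121), 0.55 for G3BP1 (0.00243), 0.50 for SERBP1 (0.000124) and 0.34 for RBM3 (0.0159). The joint fit shares 1 estimate of spread between read types, and these adjusted p-values may be too small. CAPRIN1 and SERBP1 passed in all 15 alternatives, G3BP1 in 14, and DDX3X and RBM3 in 12.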

How the results depend on the processing

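The direction and call of the 10 genes in short reads of GSK715 over DMSO held in most alternatives, and the values that did not are given here; the cause was not tested. Of the alternative values of single genes among the 10, 807 kept direction and side of the threshold, 25 lost the call, 15 gained one and 24 changed sign. Of those of the other named genes, 598 kept it and 25 lost the call. Of the counts, 739 stayed within 1.5 times and 53 did not.

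With library totals, CAPRIN1 for GSK025 was -0.059, and the WiDr minus HCT116 differences of G3BP2, CAPRIN1 and SERBP1 were 0.024, 0.22 and 0.020. There the 10 genes split into 6 higher and 1 lower (DESeq2 gave 5 higher), and all genes into 7321 higher and 3203 lower, against 5058 and 5129. The ONT minus short-read differences of FMR1 and FXR1 became -0.17 and -0.19, with 2 genes of the 10 higher and 1 lower, and all genes split 1802 to 3076, against 2697 to 2090. Library totals also gave 2994 higher and 6343 lower for GSK715 in HCT116 (4372 and 4785 with TMM), 3474 and 5406 for GSK715 over GSK025 (4302 and 4444) and 592 and 991 in ONT (681 and 716).

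In ONT, 251 genes were called without the count filter (141 higher, 110 lower) and 229 with DESeq2 (127 higher, 102 lower), against 1397. Leaving out 1 library gave 464 to 1058 (236 to 571 higher, 228 to 509 lower). The signs of some uncalled log2FC values turned when 1 library was left out. For GSK025, CAPRIN1 ranged from -0.013 (without GSK025 replicate 1) to 0.034, and was -0.0088 without DMSO replicate 2. In ONT, CAPRIN1 ranged from -0.10 (without DMSO replicate 1) to 0.23, FMR1 from -0.34 to 0.018 (without GSK715 replicate 1), FXR1 from -0.44 (without GSK715 replicate 2) to 0.52, DDX3X from -0.022 (without DMSO replicate 1) to 0.29 and CIRBP from -0.0046 (without GSK715 replicate 1) to 0.38. CAPRIN1 was -0.040 without GSK715 replicate 2, FXR1 was -0.061 without DMSO replicate 2 and DDX3X was -0.015 without GSK715 replicate 1. For ONT minus short reads, FMR1 ranged from -0.17 to 0.20, FXR1 from -0.55 to 0.41 and FXR2, with 0 to 3 ONT counts a library, from -8.1 to 0.92. The 10 genes had 3 to 5 higher there and 1 to 2 higher for GSK715 over GSK025 (2 with DESeq2). ONT depth limits FXR2 and DDX3X most.

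The replicate numbers did not pair the libraries: deviations of same-numbered libraries correlated at -0.15 to 0.058 in HCT116, 0.0065 to 0.11 in WiDr and 0.0016 in ONT, and 3 of 12 cases correlated best with their own number. With the replicate block, 8881 genes were called for GSK715 in HCT116 (9157 without it), 8486 for GSK025 (8708), 8411 for GSK715 over GSK025 (8746), 12351 for GSK715 in WiDr (12727), 1706 in ONT (1397), 9789 between lines (10187) and 4384 between read types (4787). No count of the 10 genes changed with the block.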
